A study of Mus musculus with 18 samples.

Results

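Chimeric reads that join mmu-miR-181a-5p or mmu-miR-181b-5p to a target RNA were compared across gene spans in mouse thymocytes. The members are the reads carrying either name in wild-type libraries, outside the hairpin spans of the Mir181 genes. There were 699730 such reads among the 972185 chimeric reads of 6 wild-type libraries, which belong to a series of 1190995 chimeric reads and 374 miRNA names in 12 libraries. In the enriched wild-type libraries, 2497 of the 14539 RefSeq gene spans with any such read held 50 or more, and for these genes the share of miR-181a among the a and b reads (the a share) was set against the mean of each library. Just inside this minimum, 42 genes with 50 reads had a median a share of 83.0%, and just outside it 41 genes with 49 reads had 81.6%.

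The reads came from miR-eCLIP. In this assay living cells are irradiated with ultraviolet light (254 nm), which ties RNA covalently to Argonaute 2 (Ago2), the carrier of miRNAs. Ago2 is then immunoprecipitated, and miRNA and target fragment are ligated to each other, so that 1 read names the miRNA and places the target. Thymocytes were taken from 6-week-old mice of strain C57BL/6 (wild type) and from B6.Mirc14tm1.1Ankr mice, labelled miR181a/b-1-KO, in which Mir181a-1 and Mir181b-1 are deleted while the other Mir181 genes remain; these are called the knockout. Each genotype gave 3 Ago2 immunoprecipitates (Ago2 IP) and 3 Ago2 immunoprecipitates with a further pull-down of miR-181 (enriched). Input samples (6) stayed out of every comparison and were not analysed here. Per the labels, crosslinked total thymocytes were used. The labels number the samples of each group from 1 to 3 and do not say whether they are separate mice, so the p-values measure the spread between these samples, which may be technical.

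MicroRNAs guide Argonaute to messenger RNAs mainly through the seed, a short stretch near their 5′ end, and a bound messenger is then repressed. Members of a family share the seed and differ in the bases after it, which can pair with a target as well. The miR-181 family is abundant in double-positive thymocytes, where miR-181a is known for raising the sensitivity of the T cell receptor by lowering phosphatases that damp its signal. In mouse, miR-181a and miR-181b are made as pairs from 2 loci, and miR-181c and miR-181d from a further locus.

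The mature sequences are shown because the comparison rests on the bases outside the seed. They are from RefSeq (GRCm38.p6), 5′ to 3′, with the seed (bases 2 to 8) in capitals.
mmu-miR-181a-5p: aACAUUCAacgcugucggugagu
mmu-miR-181b-5p: aACAUUCAuugcugucgguggguu
mmu-miR-181c-5p: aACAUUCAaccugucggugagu
mmu-miR-181d-5p: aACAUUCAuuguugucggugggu
All 4 carry the same seed. Counted from the 5′ end, miR-181b differs from miR-181a by A9U, C10U and A21G and by 1 extra base at its 3′ end. Directly after the seed, miR-181c keeps the bases of miR-181a and is 1 base shorter, and miR-181d keeps those of miR-181b and differs from it by C12U and by 1 base less at the 3′ end. The a and b sequences are encoded in Mir181a-1 (chromosome 1, 137966468 to 137966490, plus strand) and Mir181b-1 (chromosome 1, 137966650 to 137966673, plus strand), which the knockout lacks, and again in Mir181a-2 and Mir181b-2 on chromosome 2, which it keeps.

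The names were set against the hairpins, with each hairpin's own miRNA assumed to be the source. In the enriched wild-type libraries, reads inside the Mir181a-1 hairpin were named miR-181a 73228 times and miR-181b 41 times, and reads inside the Mir181b-1 hairpin were named miR-181b 20550 times and miR-181a 30 times. Thus 99.9% of the a and b reads carried the hairpin's own name in each. At the other locus, which had far fewer reads, the match was less close in wild type. Mir181a-2 held 405 a and 14 b reads, and Mir181b-2 held 30 a and 32 b reads (6 a and none b in wild-type Ago2 IP). In the enriched knockout libraries Mir181a-2 held 741 a and 0 b reads and Mir181b-2 held 0 a and 53 b reads. These reads were left out of everything below.

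Thymocyte genes carried the chimeras. Reads of any miRNA fell in all 8 thymocyte marker genes examined (Cd4, Cd8a, Rag1 and others), 6340 reads in enriched wild type and 1718 in wild-type Ago2 IP. Markers of B cells, myeloid cells, erythroid cells and thymic epithelium had 3, 16, 18 and 1 reads in enriched wild type. Wild-type libraries held between 43983 and 293149 chimeric reads, and knockout libraries between 6832 and 67639.

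MiR-181a made up most of the reads in every library. In wild-type Ago2 IP its share was 77.0%, 77.9% and 77.3% (mean 77.4% ± 0.452, SD, n = 3) of 34124, 20455 and 13461 a and b reads. In the enriched wild-type libraries it was 83.5%, 82.3% and 79.7% (81.8% ± 1.93, n = 3) of 246691, 217783 and 167216 reads. The enriched libraries all lay above the Ago2 IP libraries, by 4.44 percentage points on average.

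Without Mir181a-1 and Mir181b-1 fewer reads remained, and miR-181b took a larger part of them. The a share was 63.1%, 60.5% and 64.8% in knockout Ago2 IP, with 442, 511 and 415 reads. It was 70.3%, 69.2% and 66.9% in the enriched knockout libraries, with 5324, 8646 and 3120 reads. The knockout mean was lower by 14.6 points in Ago2 IP (62.8% against 77.4%) and by 13.0 points in the enriched libraries (68.8% against 81.8%). In the knockout, too, the enriched libraries lay above Ago2 IP, by 6.01 points. None of the 4 pairs of groups overlapped, and each gave p = 0.1 in an exact two-sided permutation test (adjusted p = 0.1 over 4 comparisons), the smallest p that 3 against 3 libraries allow.

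**Figure D1:**
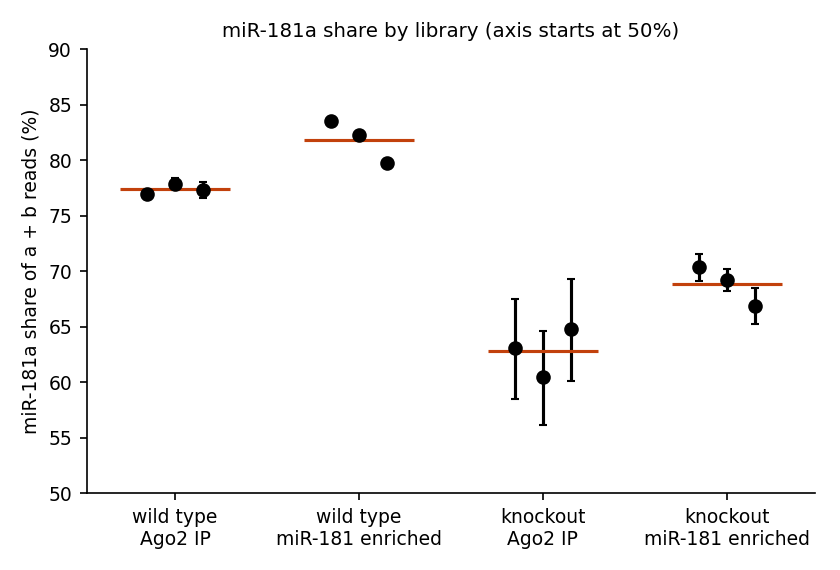
Share of miR-181a among miR-181a and miR-181b reads outside the hairpins (y axis, percent, starting at 50) in the 12 libraries; points are libraries with 95% Wilson intervals, which cover counting error only, and lines are group means. The enriched wild-type libraries lie highest, between 79.7% and 83.5%, and the knockout Ago2 IP libraries lowest, between 60.5% and 64.8%.

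Gene by gene, the enriched wild-type libraries spread widely around this mean. Across the 2497 genes the pooled a share had a median of 83.9%, with 10% of genes at or below 70.3% and 10% at or above 91.9%, and its extremes were 4.26% and 100%. Each gene was tested for a ratio of a to b reads unlike that of its libraries, in edgeR's quasi-likelihood test with the library as a block. The log2 ratio given below is the gene's a:b ratio over the library's, so 0 is the library mean. At an adjusted p of at most 0.05 over all genes, 626 genes (25.1%) differed: 346 (13.9%) leaned toward miR-181a and 280 (11.2%) toward miR-181b. The median pooled share was 92.3% in the a-leaning genes, 64.3% in the b-leaning genes and 83.7% in the other 1871. All 3 libraries lay on the same side of their means in 344 of 346 and in 269 of 280 called genes, beside 54.9% of all 2497 genes; the calls were made on the same libraries, so this describes them. Without enriched library 1, the deepest, 376 genes were called.

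Genes with more reads were called more often. Of the 1184 genes with 50 to 99 reads 16.7% were called, against 54.9% of the 144 genes with 500 or more. Over all genes tested, the median half-width of the 95% interval was 0.80 on the log2 scale, and in 51 of 2497 genes the interval lay within 0.5 of the library mean. Scaling the a and b columns by TMM factors, which assume that most genes share a ratio, moved the median gene by 0.13 toward b and turned the split of calls to 257 a-leaning and 339 b-leaning genes.

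**Figure D2:**
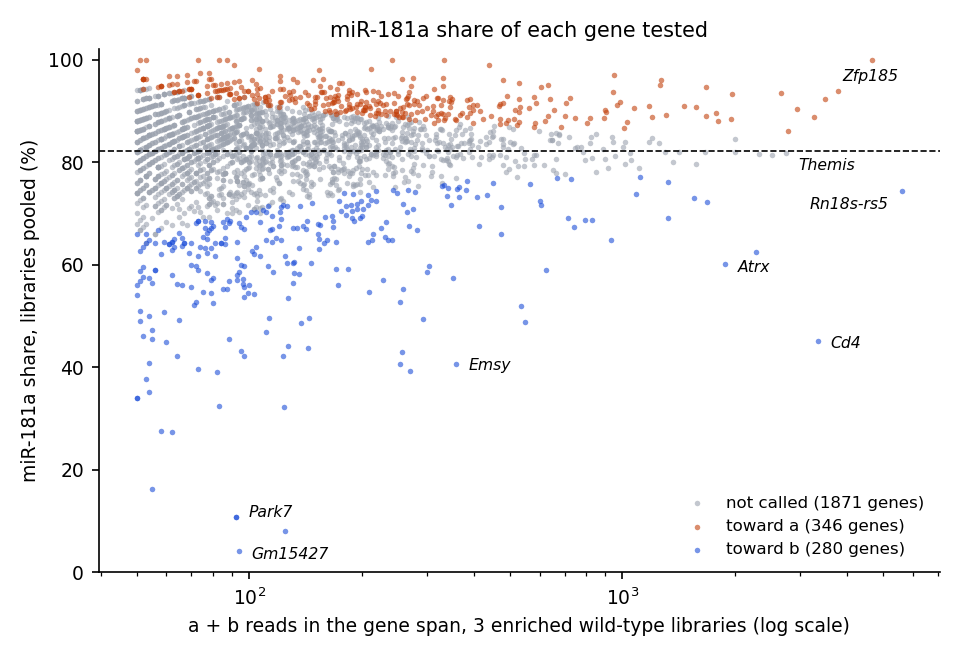
Pooled miR-181a share (y axis, percent) of the 2497 gene spans against their a and b reads (x axis, log scale) in the enriched wild-type libraries; orange marks the 346 a-leaning genes, blue the 280 b-leaning genes, grey the rest, and the dashed line the pooled share of 82.1%. Cd4 stands alone among the most read genes at 45.0%, and Gm15427 and Park7 lie near the bottom at 4.26% and 10.9%.

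Cd4, the coreceptor of helper T cells and of double-positive thymocytes, leaned toward miR-181b with the smallest p of the b-leaning genes. Its a share was 46.2% of 1514 reads, 48.2% of 1055 and 38.6% of 779 in the enriched wild-type libraries (mean 44.3% ± 5.02, n = 3). In every library it carried more b than a reads, while the library means lay between 79.7% and 83.5%. The log2 ratio was -2.50 ± 0.09 (SE; edgeR adjusted p = 1.9e-19). Wild-type Ago2 IP gave 57 a reads of 218, 38 of 99 and 11 of 45, again with b in the majority in all 3 libraries (log2 -3.02 ± 0.24, edgeR adjusted p = 1.9e-32). In the enriched knockout libraries 2 of 32, 11 of 71 and 2 of 33 reads were miR-181a. Of the further family members, Cd4 held 26 d and 6 c reads in enriched wild type and 49 d and 4 c reads in enriched knockout.

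The b-leaning genes of smallest p otherwise held housekeeping, chromatin and noncoding genes. Park7, which protects cells from oxidative stress, had 4 a reads of 50, 5 of 33 and 1 of 9 in the enriched wild-type libraries (mean share 11.4% ± 3.59; log2 -5.20, edgeR adjusted p = 4.3e-12). Gm15427, annotated as a pseudogene, had 0 of 29, 3 of 33 and 1 of 32 (4.07% ± 4.62; log2 -6.47, adjusted p = 1.0e-12). Both were read almost wholly as miR-181b, though reads of a pseudogene may be shared with near-identical copies. The reads of Gm15427 lay at 35 positions and those of Park7 at 49, against 568 in Cd4.

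Larger counts stood behind Atrx and Emsy. Atrx, a chromatin remodeller encoded on the X chromosome, had 473 a reads of 733, 348 of 604 and 316 of 551 in enriched wild type (59.8% ± 4.07; log2 -1.60 ± 0.10, adjusted p = 3.6e-13), and 33 of 65, 13 of 33 and 13 of 23 in Ago2 IP (log2 -1.83, adjusted p = 1.2e-08). Emsy, a repressor that binds BRCA2, had 41 of 117, 64 of 143 and 41 of 99 (40.4% ± 4.93; log2 -2.73 ± 0.18, adjusted p = 5.8e-13). In the Ago2 IP libraries Emsy gave 10 of 21, 4 of 7 and 5 of 7 reads, and there its log2 ratio of -1.47 did not pass (edgeR adjusted p = 0.16). Fkbp1a, the prolyl isomerase that binds FK506, had 36 of 84, 39 of 94 and 28 of 76 (40.4% ± 3.15; log2 -2.73, adjusted p = 2.2e-12) and passed in Ago2 IP as well (18 of 48 reads over the libraries, log2 -2.47, adjusted p = 1.5e-06).

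A further 3 genes on this side were narrow or mixed. Rpl13a, a protein of the large ribosomal subunit, had a shares of 51.5%, 54.3% and 49.2% of 535 reads in all (log2 -2.09). Fmn1, an actin nucleator, had 40.0%, 37.8% and 40.0% of 115, 90 and 65 reads (log2 -2.83), with all 270 reads at 10 positions. Gm36876, a long noncoding RNA gene, had 44.4%, 52.4% and 51.6% of 232, 164 and 153 reads (log2 -2.25), all of them on the strand opposite to the gene. All 9 values lay far below those of their libraries, and no library of these genes reached 55%.

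More b than a reads in each of the 3 enriched wild-type libraries was rare. It held for 25 of 2497 genes, all of them called. They included, besides 6 of the genes above, the mitochondrial gene COX1 (110 a reads of 256), the T cell receptor component Cd3g (41 of 97), the bromodomain gene Brd2 (63 of 144) and the lipid enzyme gene Cdipt (40 of 124), which are given as examples chosen after their values were seen.

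The a-leaning genes of smallest p were read almost only as miR-181a. Zfp185, which encodes a protein of the actin cytoskeleton, had 2790 a reads of 2792, 1263 of 1265 and 598 of 599 in the enriched wild-type libraries (99.9% ± 0.0527; log2 7.57 ± 0.24, edgeR adjusted p = 3.4e-21). Of its 4656 reads 99.7% lay at a single position. In Ago2 IP all 16, 14 and 13 reads were miR-181a (log2 6.23, edgeR adjusted p = 0.00059). Cth, an enzyme that makes cysteine, had 186, 87 and 59 reads, all of them miR-181a and 99.4% of them at 1 position. Against 3 reads over the group, the limit that a count of 0 allows, its a:b ratio was at least 24.2-fold above that of the libraries. That bound takes every read as independent. With identical reads of a library counted once its 332 reads were 5, so the bound need not hold.

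The other 8 genes of this side had fewer of their reads at a single position, at most 29.9% (Hspa8). Sf3b3, a subunit of the spliceosome, had 349 a reads of 359, 338 of 344 and 234 of 246 (96.9% ± 1.60; log2 2.84 ± 0.22, adjusted p = 2.2e-11). Tpr, of the nuclear pore basket, had 531 of 546, 402 of 423 and 288 of 302 (95.9% ± 1.20; log2 2.4 ± 0.18, adjusted p = 1.1e-11). Cdkn1b, the cyclin-dependent kinase inhibitor p27, had 465 of 486, 421 of 441 and 314 of 337 (94.8% ± 1.39; log2 2.03 ± 0.17, adjusted p = 6.0e-11). In these 3 genes every library lay at 93.2% or above, while the library means were 79.7% to 83.5%.

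The remaining 5 leaned less far. Prps2, an enzyme of nucleotide synthesis, had a shares of 95.7%, 94.0% and 92.7% (log2 1.89), and Idh3g, a subunit of isocitrate dehydrogenase, 94.0%, 95.5% and 91.4% (log2 1.73). Hspa8, the constitutive HSC70 chaperone, had 92.4%, 93.6% and 94.5% (log2 1.64). Its signal was narrow, with 2265 of 2658 reads in a cluster of 34 nt, and 91.1% of its reads were repeated lines. Another cluster of Hspa8, with 51 reads, was called toward b (58.8%). Ptbp3, a splicing regulator, had 93.6%, 92.4% and 93.4% (log2 1.56), and Smg6, the endonuclease of nonsense-mediated decay, 92.7%, 92.5% and 91.1% (log2 1.37). All 5 had an edgeR adjusted p of 2.2e-10 or below, and all 15 values lay above those of their libraries.

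Repeated lines, that is, reads with the same library, position, strand and miRNA, moved with the a-leaning calls. They made up 18.2% to 24.2% of the reads in the enriched wild-type libraries, a median of 21.0% in a-leaning genes, 9.09% in b-leaning genes and 6.00% in the others. With such lines counted once, 219 of the 346 a-leaning and 219 of the 280 b-leaning calls were kept. Of the genes named for the smallest p, 9 of 10 b-leaning genes stayed called (Fmn1 did not, adjusted p = 0.17), but only Sf3b3 and Tpr among the 10 a-leaning genes. Hspa8 then leaned toward b (log2 -0.84, edgeR adjusted p = 0.0039), Zfp185 had a log2 ratio of -1.19 (adjusted p = 0.42), 5 others lay between 0.03 and 0.45 with adjusted p from 0.097 to 0.89, and Cth, still without a b read, was not called (adjusted p = 0.28). Counting once leaves at most 1 a and 1 b read per position and library, so it draws a densely read site toward equal shares. The part of repeats in the leaning was not tested further. In the Ago2 IP libraries repeats were 2.97% to 5.39% of all a and b reads, and their part in single genes is not given here. Counting them once took the Ago2 IP calls from 12 to 1 toward a and from 14 to 9 toward b. With all lines kept, the a shares of Cdkn1b there were 91.7%, 88.7% and 86.5%, and those of Smg6 88.9%, 90% and 95%. All of these lay above the libraries' 77.0% to 77.9%. Of the 10 a-leaning genes, Idh3g and Tpr did not pass there (edgeR adjusted p = 0.40 and 0.072). Cth, with 3 reads, was not tested there, and the others passed.

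**Figure D3:**
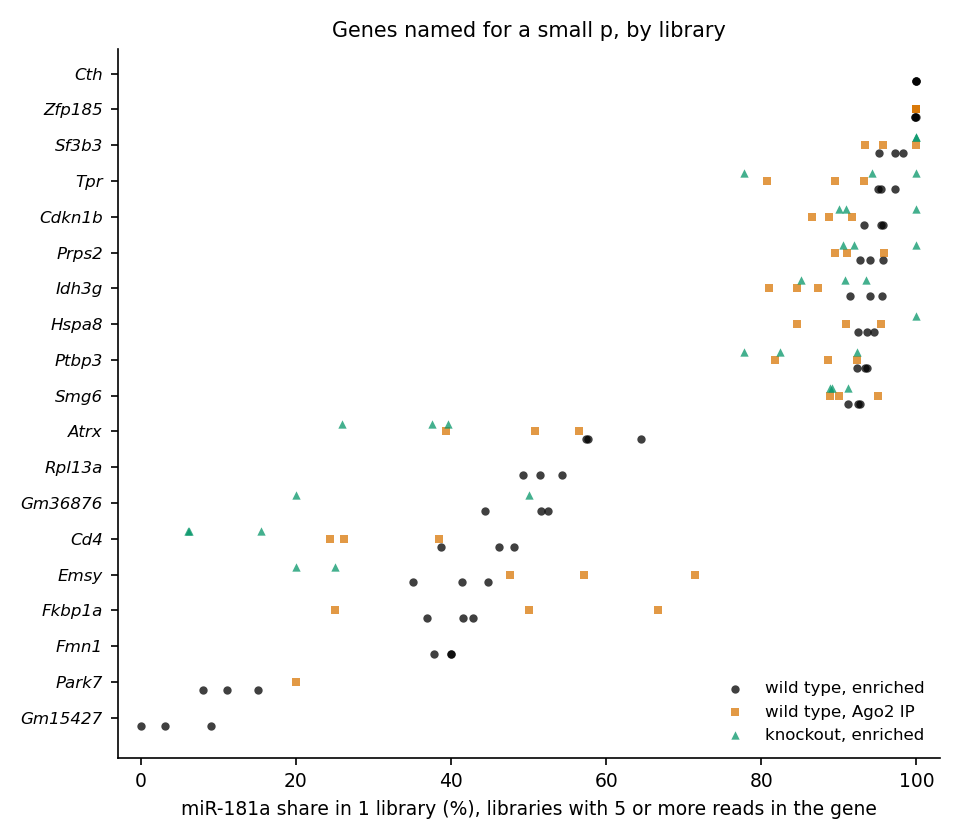
miR-181a share (x axis, percent) of the 10 a-leaning and 9 b-leaning genes of small p (y axis) in single libraries with 5 or more reads in the gene; circles are enriched wild type, squares wild-type Ago2 IP and triangles enriched knockout. The a-leaning genes lie at 91% and above in enriched wild type, the b-leaning genes below 65%, and Cd4 drops to between 6.06% and 15.5% in the knockout.

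Of the 10 genes with the most reads, Zfp185, Idh3g, Smg6, Hspa8 and Cd4 are described above. Among the other 5, Rn18s-rs5, a copy of 18S ribosomal RNA with 5599 reads, had 73.9%, 76.1% and 72.5% miR-181a (log2 -0.65 ± 0.09, edgeR adjusted p = 1.0e-06), and its reads may come from any copy of the repeat. Mbnl1, a splicing regulator, had 89.3%, 89.0% and 87.6% (log2 0.79 ± 0.10, adjusted p = 7.1e-07). Btg2, an antiproliferative gene, had 91.8%, 90.4% and 87.8% (log2 1.02 ± 0.11, adjusted p = 2.5e-08). Pik3r1, the regulatory subunit of PI3 kinase, had 86.3%, 85.7% and 86.3% (log2 0.44 ± 0.11, adjusted p = 0.0030). Themis, which is needed for positive selection of thymocytes, was close to the library mean with 82.7%, 83.5% and 78.6% of 1035, 939 and 774 reads (log2 -0.02 ± 0.10, adjusted p = 0.91). With repeated lines counted once, Mbnl1 and Btg2 were no longer called (log2 0.01 and -0.18), and Pik3r1 leaned toward b (log2 -0.33, adjusted p = 0.046).

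Of the published targets of miR-181, Ptpn22 and Dusp5 leaned toward b. Of 11 listed genes 7 were tested: none leaned toward a, 2 toward b and 5 were not called, where 13.9% of all genes tested leaned toward a and 11.2% toward b, with a median pooled share of 80.8% beside 83.9% over all genes tested. Ptpn22, a phosphatase that restrains T cell receptor signals, had 17 a reads of 30, 22 of 33 and 11 of 18 (61.5% ± 5.01; log2 -1.50 ± 0.36, edgeR adjusted p = 0.0023). Dusp5, a phosphatase that acts on ERK, had 125 of 171, 99 of 145 and 95 of 118 (74.0% ± 6.16; log2 -0.71 ± 0.20, adjusted p = 0.0070). Both were below the library mean in all 3 libraries but for Dusp5 in the third, and both lost the call without enriched library 1 (adjusted p = 0.087 for Dusp5 and 0.074 for Ptpn22) and in DESeq2 (0.14 and 0.051). Dusp5 also lost it without library 2 (0.12).

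Of the published targets that were not called, 4 are given here, and their intervals held 0. The log2 ratios were 0.82 for Cd69 (an early activation marker), 0.40 for S1pr1 (the receptor for egress from the thymus), 0.18 for Bcl2 (a survival factor) and -0.56 for Nlk (a kinase of the Notch and Wnt pathways). The interval was narrowest for Bcl2, from -0.24 to 0.60, and reached from -0.01 to 1.66 for Cd69, so a leaning of either gene within these bounds remains possible.

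Among genes of T cell receptor signalling, Cd4, Cd8a, Cd247, Lck and Cd3g leaned toward miR-181b. Of 20 listed genes 15 were tested, 1 leaned toward a, 5 toward b and 9 were not called, and the median pooled share was 78.0%, against 13.9%, 11.2% and a median of 83.9% over all genes. No test of the list was made. Besides Cd4, the b-leaning genes included Cd8a, the coreceptor of cytotoxic T cells (68.0%, 72.9% and 66.2% of 1326 reads in all; log2 -1.03 ± 0.12), and Cd247, the zeta chain of the receptor (71.3%, 71.7% and 62.9% of 717 reads; log2 -1.03 ± 0.14). Lck, the kinase that starts the signal, had 72.9%, 61.0% and 40.0% of 136 reads (log2 -1.45 ± 0.30), a wide spread over the 3 libraries. Ptprc, which encodes CD45, was at 78.7%, 79.0% and 81.8% of 1580 reads (log2 -0.21, adjusted p = 0.23). Cd28, a costimulatory receptor, was the a-leaning gene of the list, at 94.1%, 95.5% and 100% of 52 reads.

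Of 19 listed T cell transcription factors 14 were tested, none leaned toward a, 3 toward b and 11 were not called, with a median pooled share of 82.2%. Over all genes 13.9% leaned toward a, 11.2% leaned toward b and 1871 of 2497 were not called, with a median pooled share of 83.9%. The most read, Satb1 (84.2%, 82.0% and 77.9% of 2326 reads), Bcl11b (86.1%, 84.2% and 82.3% of 2007) and Tox (87.1%, 82.8% and 83.5% of 1199), lay within 0.27 of the library mean on the log2 scale. Among those that leaned toward b were Tcf7, which sets T cell identity (77.6%, 70.7% and 67.9% of 602 reads; log2 -0.80), and Gata3, which directs the CD4 lineage (56.7%, 63.6% and 50% of 62; log2 -1.75). Among the antiproliferative and corepressor genes, 5 of 9 were tested, with a median pooled share of 78.8%. Btg2 leaned toward a, Tle3 and Tob2 leaned toward b and 2 were not called, too few genes to set against the shares over all genes. Tob2 had 40.9%, 72.2% and 81.0% of 61 reads, the last above its library, and its call was lost with repeated lines counted once (adjusted p = 0.083), as was that of Btg2.

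Among zinc finger genes, Zfp157 and Zfp809 leaned toward miR-181a. Of 400 protein-coding genes whose symbol starts with Zfp, 81 were tested, 25 leaned toward a, 3 toward b and 53 were not called, and the median pooled share was 88.5%, against 13.9%, 11.2% and a median of 83.9% over all genes. With TMM factors the counts were 17 and 6, and with repeated lines counted once 24 and 3. Zfp809, a repressor of retroviruses, had 91.0%, 94.5% and 88.3% of 708 reads (log2 1.24 ± 0.20), Zfp157 96.1%, 95.7% and 93.5% of 527 reads (log2 2.16 ± 0.25), and Zfp292 88.9%, 86.6% and 90.2% of 422 reads (log2 0.73 ± 0.22). Zfp185, the most read gene of the list by its symbol, lies at a single position as described above. Zfp930, at 84.7%, 84.2% and 81.2% of 513 reads, was not called. Members of this family are alike in sequence, and how the reads of alike genes were placed is not given in the sources used here.

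Of 100 ribosomal protein genes by symbol 14 were tested, 2 leaned toward a, 2 toward b and 10 were not called, close to the shares of 13.9% and 11.2% over all genes, and the median pooled share was 81.3%. Rpl13a leaned toward b (above), and Rpl3 (90.2%, 93.0% and 100% of 170 reads, 25.9% of them at 1 position) and Rps6ka3 toward a. Rpl3 was not called with repeated lines counted once (log2 0.95, adjusted p = 0.17), and the list had 1 gene toward a and 3 toward b. Rps6ka3 encodes a kinase of ribosomal protein S6 and entered by its symbol alone, as did Rps6ka5 and Rps6kb1. The members and all these lists were taken up with results of the same libraries known, so the counts describe them and are no independent support.

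Sites within a gene were then compared. Wild-type reads on 1 strand were joined into a cluster as long as the gap to the next read was 20 nt or less, and 1106 such clusters held 50 or more reads in enriched wild type. In edgeR's quasi-likelihood test 567 of them (51.3%) differed from the library mean at an adjusted p of at most 0.05, 426 (38.5%) toward a and 141 (12.7%) toward b. The median cluster had an a share of 90.7%. TMM factors moved the median cluster by 0.75 on the log2 scale toward b, and the calls then split into 150 toward a and 206 toward b. They split into 214 and 165 with repeated lines counted once. The split between the directions therefore depends on the scaling and on the counting of repeats. Without enriched library 1 there were 293 calls.

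Within Rpl13a a narrow site of 22 nt (chromosome 7, 45126604 to 45126625, minus strand) was read as miR-181b nearly throughout. Its a shares were 6.67%, 7.06% and 5.08% of 234 reads in all (log2 -6.02 ± 0.20, edgeR adjusted p = 4.4e-07), the smallest p toward b. A 25-nt bin further upstream in the gene (45127375 to 45127399) held 176 reads with a shares of 84.6%, 97.0% and 95.5%. The near-equal total of the gene thus held a site of each kind. In Emsy, a cluster of 120 nt (chromosome 7, 98612982 to 98613101, minus strand) had 11%, 17.1% and 16.4% of 198 reads (log2 -4.70 ± 0.23). Both genes were further from the mean at the site than over the span. The sites were picked for a small p among the same reads, so this is a description.

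In Fmn1 nearly all reads fell in one short stretch. The cluster spans 3 nt (chromosome 2, 113441083 to 113441085, plus strand) and held 99 a reads of 262, at a pair of positions (log2 -2.92 ± 0.16). Gm4258, which lies on chromosome 1 upstream of the Mir181a-1 and Mir181b-1 hairpins, held a cluster (137959662 to 137959823, plus strand) with 42.0%, 45.6% and 44.6% of 347 reads (log2 -2.54 ± 0.16).

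Toward a, the clusters of smallest p were those of Zfp185, Cdkn1b, Tpr, Prps2 and Bcl11b. The Tpr cluster (chromosome 1, 150431139 to 150431277, plus strand) had a shares of 99.1%, 97.7% and 97.2% of 971 reads (log2 3.58 ± 0.24). The Bcl11b cluster (chromosome 12, 107913313 to 107913579, minus strand) had 97.8%, 96.6% and 96.2% of 688 reads (log2 2.80 ± 0.20), although the gene as a whole was not called. The Cdkn1b cluster (chromosome 6, 134924213 to 134924423, plus strand, ending 1102 nt before the end of the gene span) had 96.9%, 96.1% and 95.6% of 1132 reads (log2 2.50 ± 0.15). With repeated lines counted once the clusters of Tpr and Bcl11b stayed called (log2 1.80 and 1.51), while those of Cdkn1b (log2 0.57, adjusted p = 0.061), Prps2 (0.32, adjusted p = 0.25) and Zfp185 (-1.19, adjusted p = 0.34) did not. The genome annotation used holds no exons, so whether these sites are exonic or lie in an untranslated region was not analysed here.

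In Cd4 a b-leaning stretch and a stretch close to the library mean lay side by side. Its main cluster (chromosome 6, 124865994 to 124866288, minus strand) held 78.3% of the gene's 3348 reads and had a shares of 36.9%, 40.4% and 31.4% (log2 -2.99 ± 0.11). A border placed at the split of highest likelihood in the enriched wild-type reads, at position 124866223 and 1530 nt from the 3′ end of the gene span, split it in 2. Downstream of the border, 115 of 810, 104 of 518 and 59 of 427 reads were miR-181a (14.2%, 20.1% and 13.8%). Upstream of it, 333 of 403, 218 of 279 and 133 of 184 were (82.6%, 78.1% and 72.3%). The upstream stretch lay a little below its libraries, and the downstream stretch was read chiefly as miR-181b. This split was made on the same reads and is a description.

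The border was chosen on those reads, and other libraries had no part in it. In wild-type Ago2 IP, miR-181a had 18 of 154, 17 of 67 and 5 of 38 reads downstream and 23 of 41, 15 of 19 and 5 of 5 upstream. In the enriched knockout libraries it had 1 of 23, 3 of 54 and 0 of 27 reads downstream, and 1 of 4, 7 of 10 and 1 of 3 upstream. The downstream share was below the upstream share in all 6 of these libraries. MiR-181d and miR-181c reads downstream of the border numbered 20 and 3 in enriched wild type and 35 and 2 in enriched knockout. A second cluster of Cd4 further upstream (124866562 to 124866681) was at 80.1% of 322 reads and not called (log2 -0.24, adjusted p = 0.47).

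**Figure D4:**
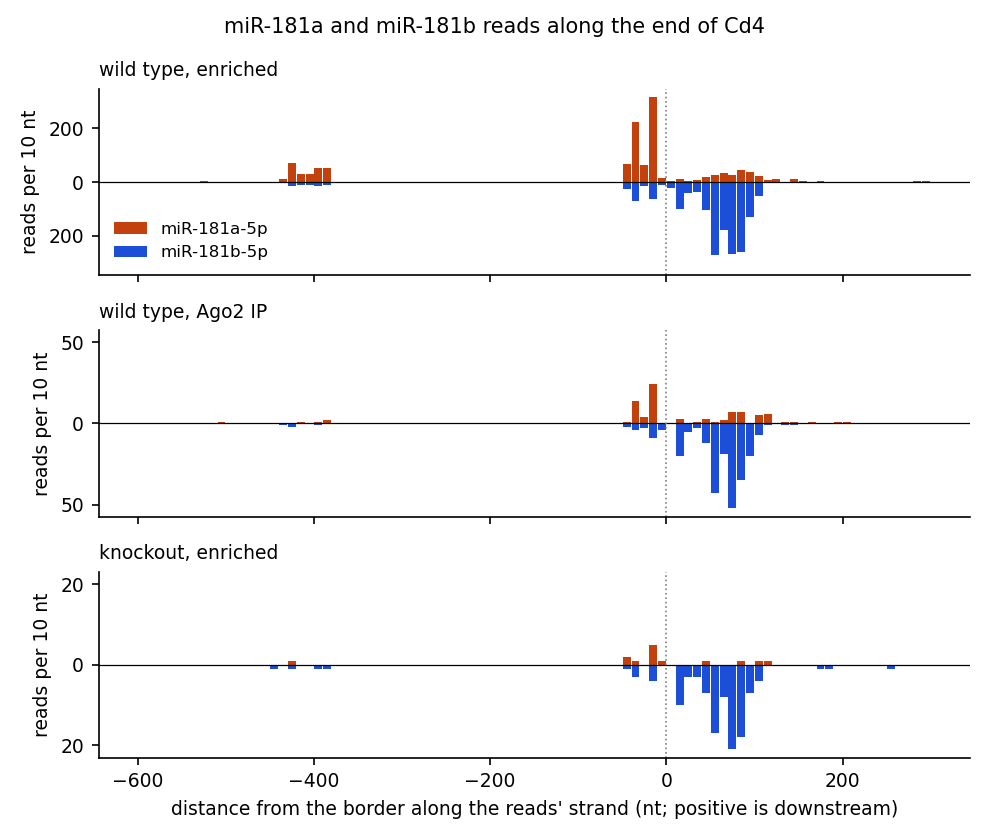
Reads of miR-181a (orange, upward) and miR-181b (blue, downward) per 10 nt along Cd4 (x axis, nt from the border, positive downstream on the reads' strand) in enriched wild type, wild-type Ago2 IP and enriched knockout, each summed over 3 libraries with its own y axis. The blue reads gather downstream of the border in all 3 panels (1477, 219 and 100 miR-181b reads), and the orange reads of wild type just upstream of it (684 and 43 miR-181a reads).

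Bins of other genes also went opposite ways, in some genes side by side. In bins of 25 nt, an alternative added after the data were seen, 763 bins were tested, 372 called toward a and 97 toward b. There, 14 genes held at least 1 bin called toward each miRNA, and the genes with 2 or more tested bins were not counted. In Tle5, a corepressor, the bin from 81565875 to 81565899 on chromosome 10 had a shares of 76.5%, 76.1% and 68.3% of 652 reads, and the next bin, from 81565900 to 81565924, had 93.8%, 95.9% and 95.9% of 380 reads. In Prkcq, the protein kinase C theta of T cell receptor signalling, a bin at 11232550 to 11232574 on chromosome 2 had 30.4%, 28.6% and 50% of 62 reads, and a bin 50 nt further on had 95.9%, 94.9% and 97.4% of 194 reads. Among the others were Sfpq and Lars2, with adjoining bins, and Rag1 and Ly6e, whose bins lay further apart. In these genes the total over the span hides sites that differ. By clusters, 23 of the 166 genes with 2 or more tested clusters held clusters called toward each miRNA. Hspa8, Atrx, Pik3r1, Mbnl1, Satb1 and Ptprc were among these.

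Where both miRNAs had many reads in a cluster, their positions mostly lay close together. Clusters were joined from a and b reads together, so the width of a cluster limits this distance in advance. In 77 clusters with 50 or more a reads and 50 or more b reads, the median positions of the 2 lay a median of 3.5 nt apart, and within 5 nt in 43 clusters. In 15 clusters they lay over 20 nt apart, among them the main cluster of Cd4 (77 nt, b downstream).

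The a share also moved with how densely a site was read. Sites of 1 read in enriched wild type had a mean a share over the 3 libraries of 79.5% ± 2.09, those of 10 to 49 reads 82.3% ± 1.78 and those of 200 or more reads 85.3% ± 1.39 (SD, n = 3). The order was the same in each library (81.2%, 80.1% and 77.1% for single reads against 86.5%, 85.7% and 83.8% for the densest sites). With repeated lines counted once, the pooled share was 79.7%, 80.5%, 81.2% and 81.3% for sites of 1, 2 to 9, 10 to 49 and from 50 to under 200 reads, and 76.9% for the densest. The rise up to the fourth class thus remained, smaller, and the densest class fell below single reads.

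The same gene test in wild-type Ago2 IP, where counts were lower, made fewer calls. Of 1558 genes with 10 or more reads there, 26 (1.67%) differed from the library mean in edgeR's quasi-likelihood test, 12 toward a and 14 toward b, and 162 had an unadjusted p under 0.05. All 12 a-leaning genes and 13 of the 14 b-leaning genes were called the same way in the enriched libraries; the exception was Ptprc (65.4%, 60.5% and 69.6%; log2 -0.88, adjusted p = 0.028). The calls rested on few reads: without library 1, 2 or 3 there were 4, 15 and 10. With TMM factors the split was 24 toward a and 9 toward b. It was 1 toward a and 9 toward b with repeated lines counted once, and 0 and 6 in DESeq2.

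Across the wider set most genes called in the enriched fit kept their side. Of the 253 a-leaning genes of the enriched fit that were measured in Ago2 IP, 213 had a pooled share above the Ago2 IP mean of 77.3%, and of the 174 b-leaning genes 145 lay below it. The median shares were 85.0%, 66.7% and, in the genes that were not called, 78.7%. The last is itself above 77.3%, which favours the a side, and the share of all 1558 genes above 77.3% was not counted. In 398 genes with 30 or more Ago2 IP reads, the log2 a:b ratios of the 2 kinds of library had a Pearson r of 0.66 and a Spearman rho of 0.60 across genes, which are not independent replicates.

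A difference between Ago2 IP and enriched libraries in a gene's leaning was called once. In edgeR's quasi-likelihood test of the interaction, 1 of 1558 genes (0.0642%) passed and 111 had an unadjusted p under 0.05. Gm15564, a long noncoding RNA gene (chromosome 16, 35966751 to 35983329), had 22 a reads of 27, 16 of 17 and 10 of 11 in Ago2 IP and 154 of 225, 145 of 237 and 69 of 163 in the enriched libraries. Its a share was thus above the library mean in all 3 Ago2 IP libraries and below it in all 3 enriched ones (log2 difference -2.70 ± 0.51, adjusted p = 0.00025). The call was lost without Ago2 IP library 2 (adjusted p = 0.10), with repeated lines counted once (0.065) and in DESeq2 (0.15).

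This does not show that the other genes lean alike in both kinds of library. The median half-width of the 95% interval of the difference was 1.90 on the log2 scale, and the interval lay within 1 of no difference in 36 of 1558 genes. For Cd4 the difference was 0.52, with an interval from 0.11 to 0.92 and an edgeR adjusted p of 0.58. With repeated lines counted once it was 0.95 and passed (adjusted p = 0.043), so that in that setting Cd4 was less b-leaning in the enriched libraries.

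The knockout keeps only Mir181a-2 and Mir181b-2 as sources, and most called genes with enough reads there leaned in the same direction. With 10 or more reads in the enriched knockout libraries, 86 of 93 a-leaning genes lay above the pooled knockout share of 69.1% and 38 of 42 b-leaning genes below it. Median shares were 84.6% and 50.2%, and 71.4% in genes that were not called. The last is itself above 69.1%, which favours the a side, and the share of all genes above 69.1% was not counted. In 45 genes with 30 or more knockout reads, the log2 ratios of enriched wild type and enriched knockout had a Pearson r of 0.93 and a Spearman rho of 0.93 across genes. Summed over the genes of a class, the a shares were 84.9%, 83.9% and 84.8% in a-leaning and 45.2%, 48.3% and 43.1% in b-leaning genes.

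The other 2 family members, which took no part in choosing the classes, followed the same order. In enriched wild type the share of miR-181c among c and d reads was 70.8% to 76.0% over the 3 libraries in a-leaning genes (1179 reads), 63.1% to 63.6% in genes not called and 42.7% to 50.3% in b-leaning genes (876 reads). In the enriched knockout libraries it was 76.9% to 80.5% in a-leaning genes (1572 reads) and 43.3% to 46.6% in b-leaning genes (1184 reads). Wild-type Ago2 IP gave 62.9% to 70.5% and 23.4% to 37.5%, from 172 and 146 reads. The c share was higher in a-leaning than in b-leaning genes in 12 of 12 libraries, and within each kind of library the 2 classes did not overlap. These genes were grouped by a and b reads of enriched wild type alone.

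The c reads beside a reads, and the d reads beside b reads, were also counted in the hairpins of enriched wild type. Whether misread names add to the order of the classes was not tested. Inside Mir181a-1 there were 0.0027 c reads per 100 a reads, against 0.88 outside the hairpins. Inside Mir181b-1 there were 0.18 d reads per 100 b reads, against 2.49 outside. As printed above, miR-181c shares with miR-181a the bases directly after the seed, and miR-181d shares them with miR-181b.

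**Figure D5:**
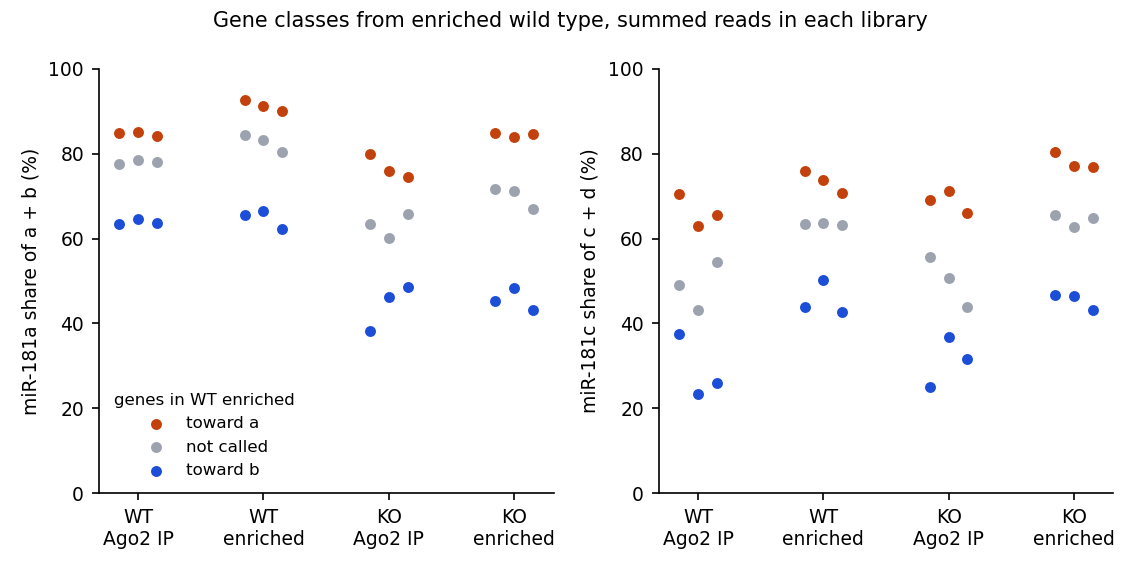
Share of miR-181a among a and b reads (left) and of miR-181c among c and d reads (right; y axes in percent) summed over the a-leaning (orange), other (grey) and b-leaning genes (blue) in each of the 12 libraries (WT, wild type; KO, knockout). The classes were set on the enriched wild-type a and b reads, so that column on the left is no test; in every other column the orange points lie above the blue ones.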

How the data were processed

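Per the labels' protocols, a company made miR-eCLIP libraries from 20 µg of RNA of crosslinked thymocytes, read as paired 150-nt reads. The submitters' processing notes name STAR 2.7.10, Bowtie2 2.4.5, UMI-tools 1.1.1, SAMtools 1.11, bedtools 2.30.0 and the build mm10 (GRCm38.p6), with no role for each. The deposited files hold unscaled counts, in which every line stands for 1 chimeric read, with a 1-nt position, a strand and the miRNA's name. All lines were kept.

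Reads inside Mir181 hairpin spans were left out. A read was given to the only protein-coding RefSeq span holding it, otherwise to the only span, on either strand. Genes needed 50 reads in enriched wild type and, for Ago2 IP, 10 there. Each library gave an a and a b column, with its total a or b reads as library size, fitted in edgeR 4.0.16 (quasi-likelihood, library as block, R 4.3.3) with Benjamini-Hochberg adjustment. Library shares were tested with scipy 1.17.1. Standard errors are the log2 value over the root of the test's F. The genome tables gave no exons, so no exon or UTR class was assigned. The fits were tested on simulated data. Intervals of log2 ratios are from the edgeR fits. Intervals of library shares and floors (3 reads) cover counting error only, since repeated lines need not be independent molecules.

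The members and lists were chosen with earlier results of these data known. Named genes were the 10 of smallest p in each direction (adjusted p at most 0.05, same side in all 3 libraries), the 10 with most reads, those called between IP kinds, 5 clusters in each direction and the published targets; other lists are given by group with examples of many reads. A few genes that the rule names are not reported here, but enter every fit and count. Alternatives were repeated lines counted once, hairpins widened by 200 nt, TMM factors, DESeq2 1.42.0, other minimums and site definitions, the replicate number as a block, and each library left out. Deviations of same-numbered libraries had correlations of 0.086, -0.0082 and 0.022 over 1558 genes, beside -0.065 to 0.035 for differently numbered ones. With few Ago2 IP reads per gene, these values cannot settle whether the numbers mark a shared origin.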

Additional observations from a re-analysis of the deposited data

Results flagged for a closer look

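Gm15564 was picked out because its leaning differed between the 2 kinds of wild-type library by the test of the difference itself, with a log2 difference (enriched minus Ago2 IP) of -2.70. Groups of 3 libraries are too small for a test of single outlying libraries, and none was made.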

How the results depend on the processing

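The 4 differences in library share kept their direction in every alternative; leaving out 1 library gave 3.60 to 5.49 points for enriched minus Ago2 IP in wild type, 4.85 to 7.02 in knockout, -15.6 to -13.4 for knockout minus wild type in Ago2 IP and -14.1 to -12.0 in the enriched libraries. With the replicate number as a block the differences of 4.44 and 6.01 points gave exact sign-flip p = 0.25 each, the smallest that 3 pairs allow, and the block left 1 gene called between IP kinds. Genes off the library mean in enriched wild type (626) numbered 246 in DESeq2, 273 at a minimum of 200 reads and 376 to 521 without 1 library (376 without library 1). In Ago2 IP (26) they numbered 10 with repeated lines counted once, 6 in DESeq2, 8 at a minimum of 30 reads and 4 to 15 without 1 library. Genes called between IP kinds (1) numbered 0 in DESeq2 (69 at an unadjusted p under 0.05) and 0 to 1 without 1 library. Clusters (567) numbered 366 in DESeq2, 1107 at a minimum of 20 reads, 145 at 200, 258 as single positions, 356 with TMM factors and 293 to 436 without 1 library. Fewer features entered at the higher minimums; the cause of the other changes was not tested. With repeated lines counted once the log2 ratio turned to -1.19 for Zfp185, -0.84 for Hspa8, -0.18 for Btg2 and -0.33 for Pik3r1. That of Themis, near 0, was 0.013, -0.091 and 0.019 without enriched library 1, 2 and 3. Depth limits the Ago2 IP and knockout values.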
